A study of Mus musculus with 12 samples.

Results

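Plasma cells (PC) and pre-memory B cells (preMem) are the states in which B cells leave the germinal center (GC), and they were compared here in the draining lymph nodes of 3 immunised mice. The members were the cells that the authors' deposited annotation names PC or preMem, 533 of 6000 cells. There were 137 PC (46, 58 and 33 in mice 1, 2 and 3) and 396 preMem cells (102, 150 and 144). Every mouse had been primed with NP-KLH, a hapten on a carrier protein, in Sigma Adjuvant System, and had been gavaged with tamoxifen. Cells were taken 5 days after the gavage, on day 16 of the response. Live IgD-negative cells carrying the eYFP reporter were sorted, plasma cells and other B cells were loaded into separate wells, and barcoded antibodies to CD45 marked the mouse of origin. All states shared this treatment. The sources used here do not give the strain, sex and age of the mice or the alleles behind the reporter. The starting point of both exits, called the origin below, was the average of the dark zone (DZ, 3040 cells) and light zone (LZ, 2213 cells) states of the same mice.

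In the GC, B cells divide and mutate their antibody genes in the dark zone and are selected on antigen and T cell help in the light zone. A plasma cell is built around secretion. The transcription factors BLIMP-1 (Prdm1), IRF4 and XBP1 switch off the B cell program, which PAX5, BACH2 and BCL6 hold in place, and enlarge the endoplasmic reticulum (ER) through the unfolded protein response. A memory precursor keeps its antigen receptor and its antigen-presenting machinery, stops dividing, and takes up receptors that let it leave the follicle and recirculate.

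Transcripts were counted as unique molecular identifiers (UMIs) by 5′ single-cell sequencing and summed per mouse and state. The sums held 775666 to 1339637 UMIs for PC, 456162 to 704294 for preMem, and 3533565 to 10709429 for DZ and LZ. The median cell held 24018 UMIs in PC, 4119 in preMem, 7875 in DZ and 6258 in LZ. Barcodes came in a first and a second series, which shared 0 barcodes. The second series held 117 PC and no preMem, DZ or LZ cell. The first held 20 PC (3, 11 and 6 in mice 1, 2 and 3) and every preMem, DZ and LZ cell. PC are therefore compared with the other states mostly across series, and preMem with the origin within 1 series. The labels do not tie the series to the sorted fractions. Marker genes of T cells, NK cells, myeloid and erythroid cells together gave at most 9.03 CPM (UMI counts rescaled to a common total per sum) for any of these lists in any PC or preMem sum, stromal markers were at 0 in both, and Trac and Cd3e had no UMI in either. Without the 10 PC and 2 preMem cells (and 36 DZ and 29 LZ cells) that had 2 or more such UMIs, PC had 2118 genes above and 2282 below preMem, beside 2193 and 2340 with them.

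Both labels were borne out by their defining genes, with 1 limit each. PC had Prdm1, Xbp1, Irf4, Sdc1, Jchain and Mzb1 far above preMem, and preMem had Cd38, Klf2, Hhex, Ccr6, S1pr1 and Bcl2 above both the origin and PC. The states were drawn from the same expression values that are compared. PC are exactly 1 of the authors' clusters (137 of 137 cells). The preMem state begins at a memory score of 0.780, with 40 of its cells within 0.02 above that value, 46 other cells within 0.02 below it and 35 other cells above it. The adjusted p-values below therefore describe the spread between 3 mice and are not independent evidence that the states exist. They come from edgeR's quasi-likelihood test with mouse as a block and Benjamini-Hochberg adjustment over 9649 genes, with the threshold at 0.05. Differences are log2 fold changes with their standard error, and levels are CPM scaled by the trimmed mean of M-values (TMM), which offsets the large share of immunoglobulin transcripts in PC.

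Set against preMem, PC had 2193 genes higher (22.7% of those tested) and 2340 lower (24.3%), with a median over all genes of -0.10 (log2). The scaling centres most genes near 0, so the balance of the 2 counts is in part set by it. The 3 PC and 3 preMem values did not overlap in 5160 of the 9649 genes tested. Among the 4533 called genes, 4277 did not overlap. Lack of overlap is therefore common, and it only describes the genes named below. These are differences in TMM-scaled CPM, which are neither raw shares of transcripts nor UMIs per cell. The TMM factors, 0.602 to 0.741 in PC and 1.10 to 1.11 in preMem, raise PC values beside those of preMem. Small differences between the exits therefore depend on the scaling. A PC held more UMIs than a preMem cell. Of the 2193 genes higher in scaled CPM, 2173 also had more UMIs per cell in PC in all 3 mice. Of the 2340 lower in scaled CPM, 773 had fewer UMIs per cell in PC in all 3 mice and 777 had more.

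Against the origin, PC had 2430 genes higher (25.2%) and 2738 lower (28.4%), and preMem had 1705 higher (17.7%) and 1739 lower (18.0%). Both contrasts use the same DZ and LZ sums, so their values are given side by side and a match between them is not independent. The PC contrast also ran mostly across barcode series and the preMem contrast within the first. For the PC of the second series, state and series cannot be told apart. Genes called in both with a log2 fold change of at least 1 in size are termed shared. They numbered 335 upward (3.47%) and 189 downward (1.96%). A gene was assigned to 1 exit when it was called there with a log2 fold change of at least 1 in size. It also had to be not called in the other exit in either direction, and to differ between PC and preMem in that direction. Not being called does not show that a gene was unchanged in the other exit. PC alone had 724 genes higher (7.5%) and 714 lower (7.4%), and preMem alone had 268 higher (2.78%) and 132 lower (1.37%). With a log2 fold change of at least 1 in size on both sides, PC was higher and preMem lower than the origin in 38 genes (0.394%), and PC was lower and preMem higher in 136 genes (1.41%). Calls without a fold threshold put 866 genes in opposite directions. With a drawn 33 cells per sum, which left 4814 genes to test, 152 genes were shared upward and 88 downward.

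**Figure D1:**
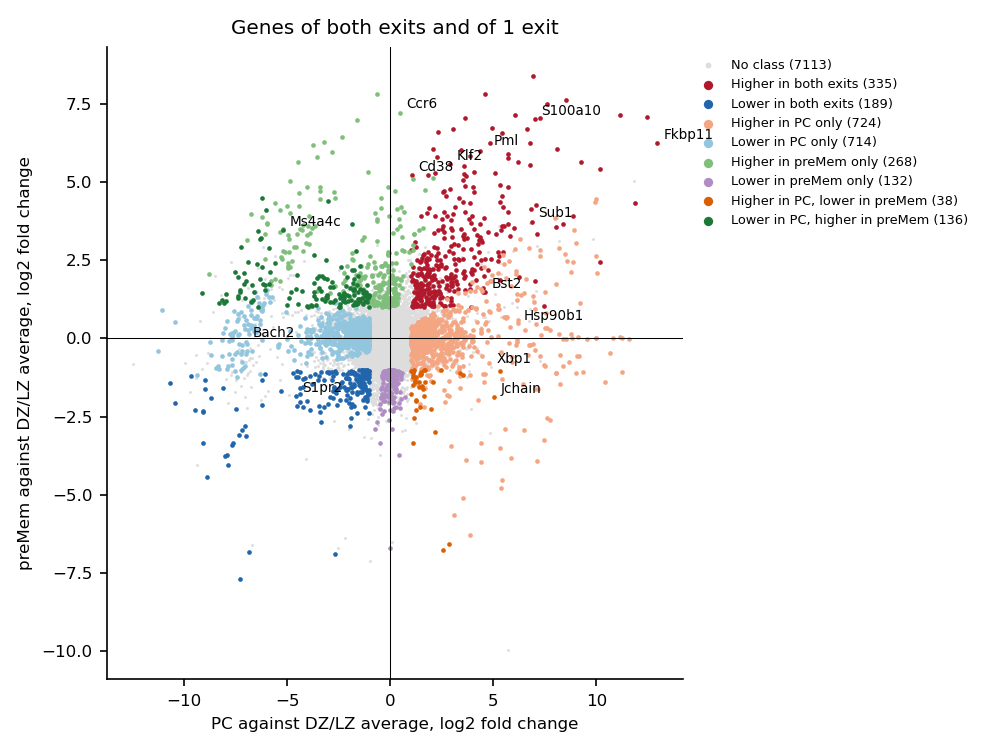
Each point is a gene; the x axis is the log2 fold change of PC against the origin and the y axis that of preMem against the origin, with shared, single-exit and opposite genes coloured. The 335 genes higher in both exits lie at the upper right and the 189 lower in both at the lower left; folds of genes with 0 UMIs in a group depend on the fit's prior count.

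The transcription factors separated the exits. Of 10 plasma cell factors tested, 9 were higher in PC than in preMem and 1, Zbtb20, was lower (-1.69, adjusted p = 1.5e-05). The list's median difference was 3.83, beside -0.10 over all genes. Prdm1, which encodes the repressor BLIMP-1, was at 48.5, 45.4 and 45.3 CPM in the PC of mice 1, 2 and 3 and at 3.98, 1.29 and 0 CPM in preMem. The groups did not overlap, and Prdm1 was 4.95 ± 0.51 higher in PC (adjusted p = 1.5e-05). Against the origin it was 6.17 higher in PC, while preMem was at 1.22 (adjusted p = 0.362). Xbp1, which drives expansion of the secretory apparatus, was at 3334, 3879 and 2347 CPM in PC against 65.7, 55.3 and 52.2 CPM in preMem, a difference of 5.78 ± 0.17 (adjusted p = 3e-09). Relative to the origin Xbp1 moved in opposite directions, 4.87 higher in PC and 0.91 lower in preMem (adjusted p = 0.00022). Irf4 was 4.93 ± 0.32 higher in PC (adjusted p = 3.9e-07). Bhlha15, a regulator of secretory cell architecture, had 183 UMIs in PC and none in preMem, so it was at least 58.1-fold higher, taking 3 UMIs in the summed preMem cells as the floor.

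Of 20 transcription factors of B cells and the GC, 16 were lower in PC than in preMem and 2 were higher, with a median of -2.35. Bach2, which restrains plasma cell differentiation, had 2 UMIs in all PC and 232 in preMem (114, 114 and 115 CPM in mice 1, 2 and 3), a ratio of 122 (95% counting interval 33.4 to 1012). In preMem it did not pass the test against the origin (-0.10, adjusted p = 0.448). Pax5, the keeper of B cell identity, was at 2.7, 6.14 and 1.74 CPM in PC and at 77.7, 100 and 88.3 CPM in preMem, with no overlap. The difference was -4.57 ± 0.27 (adjusted p = 1.9e-07), and preMem again did not pass against the origin (0.12, adjusted p = 0.41). Bcl6, the master regulator of the GC, had 1 UMI in PC and 79 in preMem, where its difference from the origin was -0.39 (adjusted p = 0.06). Ebf1 (-4.21), Spib (-4.55) and Irf8 (-2.86) were lower in PC as well. The 2 exceptions were Pou2af1, a coactivator of immunoglobulin genes, at 0.93 (adjusted p = 7.9e-05), and Tcf4 at 0.41 (adjusted p = 0.00223). In cells of the first barcode series Tcf4 was at -0.23, beside a median of -0.37 over all genes tested there.

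**Figure D2:**
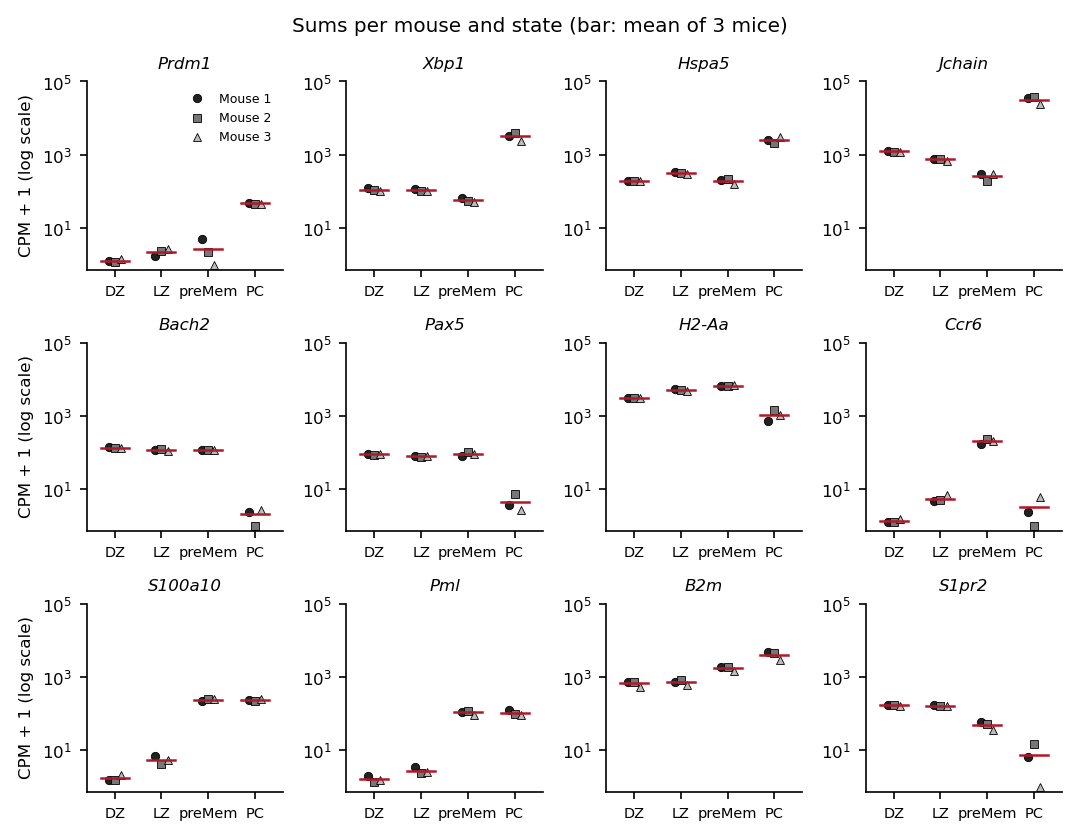
Levels in TMM-scaled CPM plus 1 on a log axis for 12 genes, with 1 point per mouse in DZ, LZ, preMem and PC and a red bar at the mean. Prdm1, Xbp1, Hspa5 and Jchain are highest in PC, Bach2, Pax5 and H2-Aa drop in PC alone, Ccr6 is high in preMem alone, S100a10, Pml and B2m are high in both exits, and S1pr2 is low in PC and intermediate in preMem.

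Nearly all genes of the secretory apparatus were higher in PC. Of 28 genes of the unfolded protein response and ER chaperones, 27 were higher in PC than in preMem and none was lower, with a median difference of 3.71. The group took 2.26% ± 0.265 (SD, n = 3 mice) of all UMIs in PC and 0.255% ± 0.0124 in preMem. Hspa5, the chaperone BiP, was at 2576, 2145 and 3022 CPM in PC and at 201, 215 and 156 CPM in preMem. Its lowest PC value lay far above the highest preMem value (3.76 ± 0.16, adjusted p = 2e-08). Hsp90b1, the ER chaperone GRP94, was at 12120, 10979.8 and 11492 CPM in PC against 185, 269 and 197 CPM in preMem (5.74 ± 0.13, adjusted p = 6.8e-10). Creld2 (5.83), Manf (4.87), Pdia4 (4.28), Dnajc3 (3.94), Pdia6 (3.73) and Calr (3.33) were higher in PC too. The member that was not called was Ddit3, the stress-linked factor CHOP, at 9.07 CPM in PC and 15.6 CPM in preMem (-0.68, adjusted p = 0.175).

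Relative to the origin, preMem moved the other way in part of this group, with 11 of 28 genes lower, 4 higher and the rest not called. Hspa5 (-0.39, adjusted p = 0.0352) and Xbp1 were among those below the origin. Fkbp11 and Pdia4, both protein-folding enzymes of the ER, were the 2 members higher in both exits. Pdia4 was at 99.6, 104 and 97.6 CPM in preMem, against means of 19.8 CPM in DZ and 33.1 CPM in LZ, and at 2282, 1795 and 1819 CPM in PC. Of 40 genes of ER import, glycosylation and vesicle transport, 39 were higher in PC than in preMem (median 2.74) and 1 was lower, the oligosaccharyltransferase subunit Stt3b (-0.82, adjusted p = 0.00034). In the first barcode series, which has 20 PC, 23 of 28 unfolded protein response genes were higher and the median fell to 2.23.

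Since these genes moved together, their promoters were searched over the 250 bases upstream of each start, on both strands, in RefSeq sequences of GRCm38.p6. Of 9649 genes, 7266 had an entry. The ER stress response element, CCAAT and CCACG with 9 bases between them, was found in 12 of those 7266 genes (0.165%). Of 24 unfolded protein response genes with a promoter, 8 held it (33.3%): Calr, Canx, Creld2, Dnajc3, Hsp90b1, Hspa5, Pdia6 and Syvn1. Of the 12 genes, 9 were higher in PC than in preMem and none was lower; the ninth beside the 8 was Derl3, and Alg12, Hnrnpa3 and Pan2 were not called. It was 1 of 9 motifs searched and 1 of 2 described, chosen after the counts were seen. The others were a second ER stress element (ATTGG and CCACG, 1 base apart), the interferon response core and its longer form, which contains it, the MHC class II Y box (CTGATTGG), 2 forms of the X box, the amino acid response element and a PRDM1 site (AAGTG followed by AAAGT). A match describes letters, not a bound site. The windows of 4 chaperone and folding genes are printed with only the first match to the element in capitals. They lie at chr2:34771965-34772089 (Hspa5, + strand), chr10:86705578-86705694 (Hsp90b1, - strand), chr15:88819460-88819598 (Creld2, + strand, with the element read from the opposite strand) and chr12:17266431-17266569 (Pdia6, + strand). Hsp90b1 held 2 matches over its 250 bases.
Hspa5: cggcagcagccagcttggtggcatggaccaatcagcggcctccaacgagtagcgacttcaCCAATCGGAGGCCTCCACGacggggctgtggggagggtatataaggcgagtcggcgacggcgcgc
Hsp90b1: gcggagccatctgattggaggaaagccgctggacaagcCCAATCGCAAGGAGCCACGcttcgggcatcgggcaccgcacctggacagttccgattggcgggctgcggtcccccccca
Creld2: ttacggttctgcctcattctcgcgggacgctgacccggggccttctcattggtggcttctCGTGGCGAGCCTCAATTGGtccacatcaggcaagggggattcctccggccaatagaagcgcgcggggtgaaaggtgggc
Pdia6: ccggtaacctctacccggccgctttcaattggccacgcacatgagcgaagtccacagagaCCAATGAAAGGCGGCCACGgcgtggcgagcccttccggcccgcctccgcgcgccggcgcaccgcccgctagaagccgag

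Surface and secreted genes of plasma cells followed. Of 14 tested, 13 were higher in PC than in preMem (median 4.51) and none was lower. In the first barcode series 8 of 12 were higher and 1 lower, with a median of 1.66. Slpi, a secreted protease inhibitor, was at 25078, 39624 and 14520.4 CPM in PC against 91.6, 100 and 106 CPM in preMem (8.00 ± 0.32, adjusted p = 1.3e-08). Jchain, which joins IgM and IgA into polymers, was at 34904, 37351 and 23763 CPM in PC and at 293, 186 and 306 CPM in preMem (6.93 ± 0.23, adjusted p = 4e-09). Relative to the origin it was 5.05 higher in PC and 1.88 lower in preMem (log2 difference -1.88, adjusted p = 1e-05). Several genes had no UMI in preMem at all. With the same floor, Cd28, a costimulatory receptor that plasma cells carry, was at least 103-fold higher in PC (324 UMIs), Hid1 at least 45.7-fold (144 UMIs), Tnfrsf17, the survival receptor BCMA, at least 38.7-fold (122 UMIs), and Ccr10, a mucosal homing receptor, at least 14.6-fold (46 UMIs). Sdc1, the classical surface marker CD138, had 282 UMIs in PC and 1 in preMem, a ratio of 268 (95% counting interval 47.8 to 10639). DESeq2 did not call Bhlha15 (adjusted p = 0.0945), Hid1 (0.111) or Tnfrsf17 (0.119).

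Immunoglobulin transcripts made up 35.6% ± 5.19 (SD, n = 3) of all UMIs in PC (39.4, 37.6 and 29.7% in mice 1, 2 and 3) and 1.73% ± 0.081 in preMem. No preMem value came near a PC value, but an exact sign-flip test over 3 mice cannot go below 0.25 and gave that value. DZ stood at 1.48% and LZ at 1.33%. Ribosomal protein transcripts ran the other way, at 14.7% ± 1.64 in PC and 28.4% ± 0.435 in preMem, and outside immunoglobulin genes at 22.7% ± 0.707 and 28.9% ± 0.430.

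The exits carried different heavy-chain classes. Cells were assigned by their most abundant heavy-chain constant transcript. Ighg1 led in 49.1% ± 17.8 of PC (54.3, 29.3 and 63.6%) and in 9.22% ± 3.19 of preMem cells, while Ighm led in 17.6% ± 5.88 of PC and in 58.4% ± 4.09 of preMem cells (62.7, 54.7 and 57.6%). PC and preMem did not overlap for either class. DZ had 49.4% Ighm and 20.3% Ighg1 cells, and LZ had 46.2% and 25.5%. Ighg2c varied most between mice, at 6.52, 39.7 and 0% of PC. Ighd led in 52 of 396 preMem cells and in no PC, although the cells were sorted as IgD-negative. The assignment rests on a median of 361 heavy-chain UMIs per PC but only 3 per preMem cell, and 14.9% ± 4.60 of preMem cells had none or a tie. Ighg2b and Ighg2c are near-identical in part, so reads may be split between them.

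**Figure D3:**
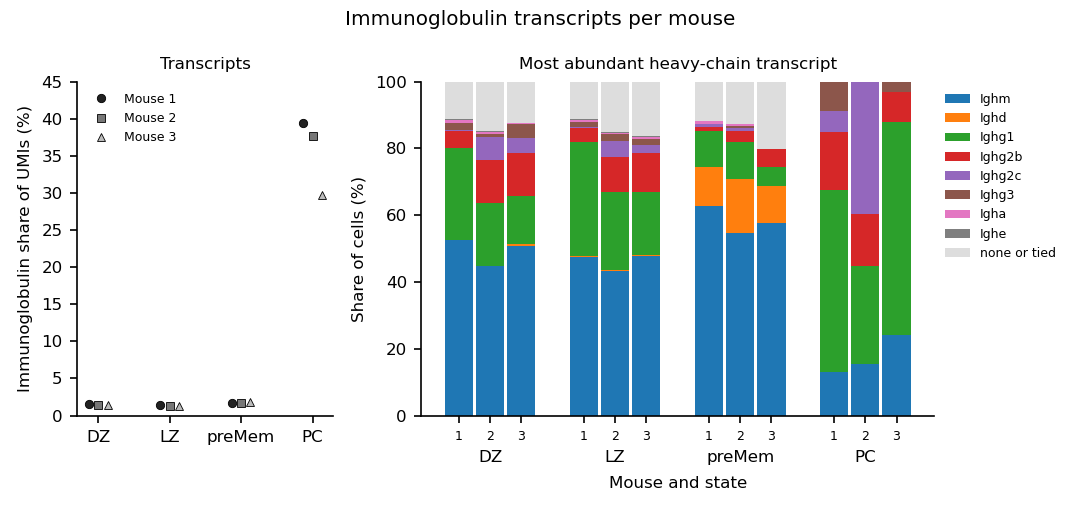
The left panel plots the percent of UMIs from immunoglobulin genes in DZ, LZ, preMem and PC, 1 point per mouse. The right panel stacks the percent of cells by most abundant heavy-chain constant transcript, 1 bar per mouse and state. PC stand at 29.7 to 39.4% of UMIs. Over 3 mice, Ighg1 leads in a mean of 49.1% of PC and Ighm in 58.4% of preMem cells. In mouse 2 more PC are led by Ighg2c (39.7%) than by Ighg1 (29.3%).

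Most MHC class II genes were lower in PC and higher in preMem than the average of DZ and LZ. Of 13 MHC class II genes, 11 were lower in PC than in preMem and 1 was higher (median -2.10). Relative to the origin 10 were lower and 2 higher in PC, and 11 were higher and none lower in preMem. H2-Aa, an MHC class II chain, was at 715, 1446 and 1029.8 CPM in PC and at 6684, 6415 and 6929.5 CPM in preMem, with no overlap (-2.67 ± 0.18, adjusted p = 6.5e-07). Ciita, the coactivator of class II genes, was at 0, 4.91 and 1.74 CPM in PC against 159, 141 and 173 CPM in preMem (-6.06, adjusted p = 1.1e-07). The exceptions were proteases of the endosome. Lgmn was higher in PC (0.59, adjusted p = 0.0183) and Ctss was at -0.21 (adjusted p = 0.131). Together the list made up 0.887% ± 0.175 of UMIs in PC and 5.10% ± 0.130 in preMem. It made up 2.82% ± 0.061 in DZ and 4.52% ± 0.165 in LZ, so the preMem level was closer to LZ than to DZ.

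Genes of receptor signalling and T cell help were also lower in PC than in preMem. Of 18 genes of B cell receptor signalling, 16 were lower in PC than in preMem and 1 was higher (median -2.12), and in preMem 11 were above the origin and none below. The inhibitory receptors Cd22 (-5.26) and Cd72 (-5.46), the phosphatase Ptpn6 (-3.94) and the kinase Lyn (-3.46) were lower in PC. Blnk, the adaptor behind the receptor, was the exception at 0.35 (adjusted p = 0.0123), but in the first barcode series it was at -0.52 (adjusted p = 0.0192). All 11 tested receptors for T cell help and survival were lower in PC (median -3.85). In preMem 5 of the 11 were above the origin and 1 was below. This list took 0.175% of UMIs in preMem, 0.216% in LZ and 0.109% in DZ. Between the exits Cd40 was at -3.85, the costimulatory ligand Cd86 at -4.05, and the ICOS ligand Icosl had 3 UMIs in PC against 124 in preMem.

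**Figure D4:**
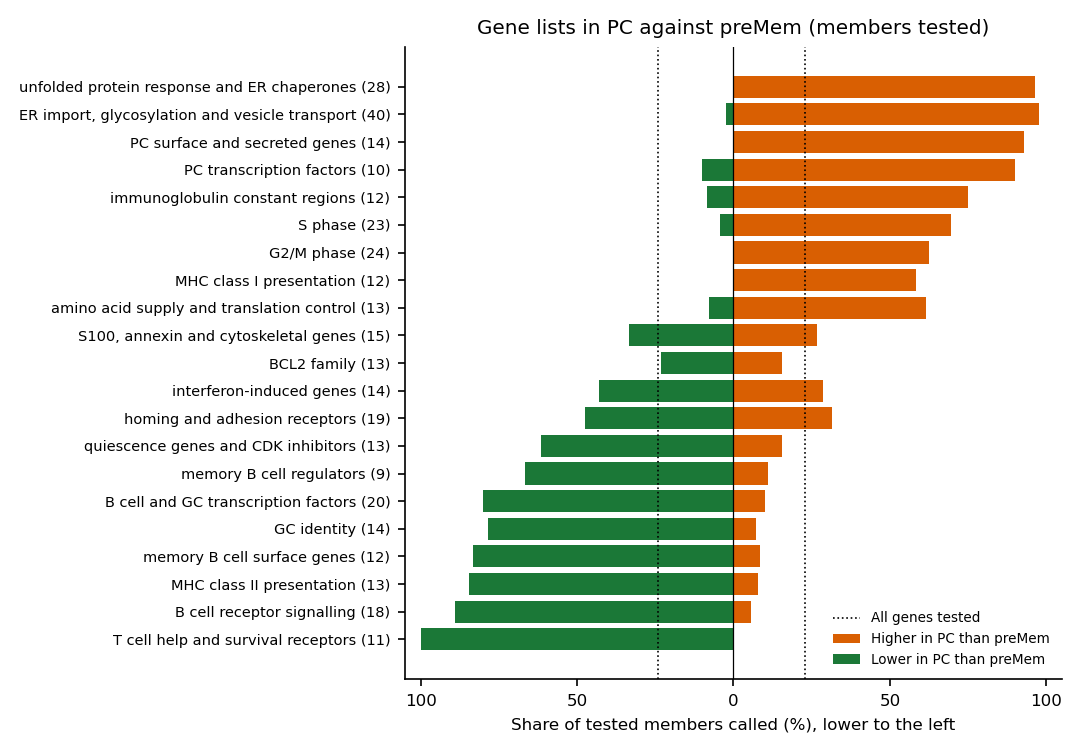
For each of 21 gene lists, bars show the percent of tested members called higher (right) or lower (left) in PC than in preMem, and dotted lines mark 22.7% and 24.3%, the shares among all genes tested. The secretory lists stand almost fully to the right and MHC class II, receptor signalling and T cell help almost fully to the left.

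Genes of the memory program were higher in preMem, and part of them was also above the origin in PC. Of 12 memory surface genes, 10 were higher in preMem than in the origin and 4 in PC, and 10 were lower in PC than in preMem (median -3.93). Ccr6, a chemokine receptor of memory precursors, was at 173, 230 and 201 CPM in preMem and at 1.35, 0 and 5.23 CPM in PC. It was 7.21 above the origin in preMem and showed no call in PC (0.50, adjusted p = 0.654), and PC lay below preMem by -6.72 ± 0.34 (adjusted p = 8.6e-08). Cd38, which mouse GC cells lose and memory cells regain, was at 118, 168 and 151 CPM in preMem and at 5.39, 8.59 and 10.5 CPM in PC (-4.18, adjusted p = 1.2e-07). Of 9 memory regulators, 7 were above the origin in preMem and 4 in PC, and 6 were lower in PC than in preMem (median -2.53).

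A group of 335 genes rose in both exits, by a median of 2.61 in PC and 2.22 in preMem. Of these, 108 were higher in PC than in preMem, 49 were lower and 178 were not called between the exits, and 7 were immunoglobulin genes. S100a10, an adaptor that carries channels and receptors to the cell surface, was at 239, 217 and 247 CPM in PC and at 217, 239 and 242 CPM in preMem, against means of 0.716 CPM in DZ and 4.42 CPM in LZ. The exits overlapped (0.00 ± 0.13, adjusted p = 0.993), and each stood about 7 log2 units above the origin (7.01 in PC, adjusted p = 4.7e-11, and 7.0 in preMem, adjusted p = 3.4e-10). Pml, the scaffold of PML nuclear bodies, was at 123, 97 and 92.4 CPM in PC and at 108, 116 and 92.3 CPM in preMem, again overlapping (-0.04, adjusted p = 0.825), and was 6.66 and 6.70 above the origin. Plac8 (6.06 in PC, 7.14 in preMem) and the integrin chain Itgb7 (5.11 and 5.27) rose in both as well.

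Other shared genes rose further in 1 exit. Ccnd2, a cyclin of the G1 phase, was at 449, 335 and 382 CPM in PC and at 51.8, 73.3 and 40.1 CPM in preMem (2.80, adjusted p = 3.1e-07), and was 7.06 and 4.26 above the origin. The transcriptional coactivator Sub1 was 6.87 and 3.73 above the origin. The repressor Bhlhe41 was 8.53 and 7.61 above it. Capg, an actin-capping protein, went further in preMem (3.66 in PC, 5.18 in preMem, difference -1.53). Of 15 S100, annexin and cytoskeletal genes, 8 were higher in both exits (S100a6, S100a10, S100a11, Anxa6, Vim, Lgals3, Ahnak and Emp3) and 1, Anxa2, was lower in both. Among G1 cells 5 of the 15 were above the origin in PC, beside 10 with all PC, and the list's PC median went from 1.84 to 0.34. The PC level of S100a6 came from 20 UMIs in 5 cells, all in the first barcode series and none called G1.

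Many receptors of cell movement were above the origin in both exits. Of 19 homing and adhesion receptors, 15 were above the origin in PC and 14 in preMem, and 9 of them by the shared rule. Among G1 cells 10 of 18 were above the origin in PC, and the PC median went from 2.08 to 0.98. Between the exits 6 were higher and 9 lower in PC (median -0.16), and in the first barcode series 2 and 9 of 18 (median -1.03). Selplg, the selectin ligand PSGL-1, was at 298, 286 and 213 CPM in PC and at 47.8, 47.6 and 49.5 CPM in preMem (2.46, adjusted p = 6.8e-07). Cxcr3, an inflammatory chemokine receptor, was at 143, 228 and 171 CPM in PC and at 61.7, 75.9 and 77.6 CPM in preMem (1.39, adjusted p = 0.00023). The integrin chain Itga4 was 0.78 higher in PC (adjusted p = 0.00077). All 3 were higher in every PC sum than in every preMem sum.

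The receptors of lymphatic egress and lymph node entry leaned to preMem. Klf2, a transcription factor that drives S1pr1, was at 75.5, 119 and 103 CPM in PC and at 595, 601 and 663 CPM in preMem, against means of 7.44 CPM in DZ and 23.2 CPM in LZ. It was below preMem in PC (-2.64 ± 0.14, adjusted p = 1.1e-07) and above the origin in both, by 2.91 in PC and 5.56 in preMem. S1pr1, the receptor for egress into lymph, was at 13.5, 16 and 24.4 CPM in PC and at 63.7, 59.2 and 69.5 CPM in preMem (-1.87, adjusted p = 4.9e-05). Ccr7, the receptor for lymph node T zone chemokines, had 8 UMIs in PC and 115 in preMem (-3.95). Klf2 and S1pr1 did not overlap between the exits.

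The level of some shared genes in PC sat in part of the PC. These genes were singled out after their values were seen, and the levels that follow are raw CPM, scaled to the cells' own UMI total without TMM. Of 91 PC that the authors called G1, 4 had a Klf2 UMI (4.07 raw CPM), against 21 of 46 PC called S or G2/M (147 raw CPM) and 314 of 396 preMem cells (687 raw CPM). Ccr7 had a UMI in 0 of 91 G1 PC and in 5 of 46 others. The same split ran along the barcode series, which overlaps with phase only in part, since 7 of the 91 G1 PC were in the first series. Klf2 stood at 464 raw CPM in the 20 PC of the first series and at 16.0 in the 117 of the second, and Vim at 1463 and 248. S100a10 stood at 470 and 110 raw CPM beside 259 in preMem. Its equal CPM in the exits is therefore a TMM-scaled average over unlike PC. The 20 PC of the first series also had little Sdc1 (1 UMI in all, against 281 in the second) and less Xbp1 (733 against 2244 raw CPM), while Prdm1 was at 59.4 and 26.0 raw CPM.

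Restricting the fit to G1 cells separated these genes from the rest. Against the origin in PC, Klf2 went from 2.91 to -0.80 (adjusted p = 0.155), Ccr7 from 2.08 to -4.35 (adjusted p = 0.255) and Vim from 1.84 to 0.17 (adjusted p = 0.348). Other genes kept their rise. In G1 PC, S100a10 was 6.62 above the origin, Pml 7.44, Itgb7 3.93, S1pr1 3.21, Selplg 5.55 and Cxcr3 4.33. The difference between the exits in Selplg (0.95, adjusted p = 0.051) and Cxcr3 (-0.60, adjusted p = 0.304) did not pass in the first barcode series. Why PC differ along the series and the phase was not tested.

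**Figure D5:**
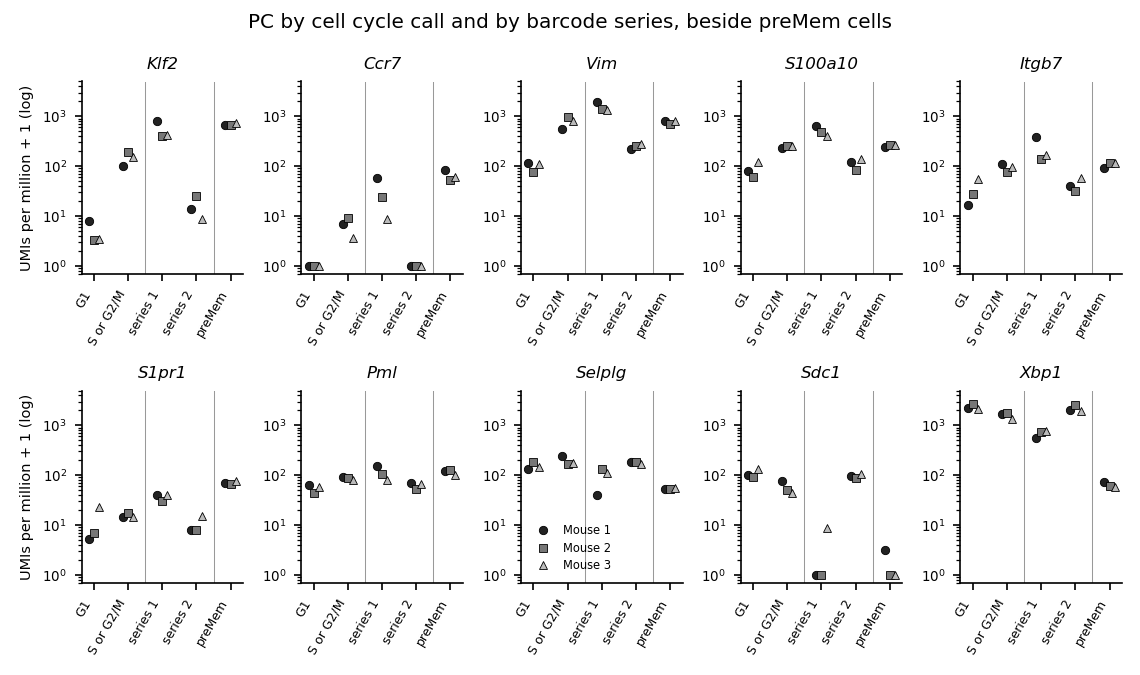
Raw CPM (without TMM scaling) plus 1 on a log axis for 10 genes in PC called G1, PC called S or G2/M, PC of the first and second barcode series, and preMem cells, 1 point per mouse. Klf2, Ccr7 and Vim are low in G1 and second-series PC and high in preMem; Selplg is above preMem in the PC subsets, apart from mouse 1 in the first series; Sdc1 is nearly missing from the first series.

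Genes of MHC class I presentation were above the origin in both exits when all PC were used. All 12 class I genes tested were above the origin in PC, 8 were above it in preMem, 1 was below it in preMem, and 6 were shared by the fold rule. B2m, the common class I light chain, was at 4638, 4562 and 2811 CPM in PC and at 1792, 1855 and 1469.6 CPM in preMem, without overlap (1.21 ± 0.09, adjusted p = 9.2e-07). It was 2.52 and 1.32 above the origin. H2-K1 (2.43 and 1.45) and H2-Q7 (4.08 and 2.18) rose likewise, although class I genes share sequence and their reads may be split between them. Between the exits 7 of 12 were higher in PC and none lower, while in the first barcode series none was higher and 3 were lower. Against the origin, 6 of 12 were higher and 1 lower in PC of the first series, and the list's median there was 0.47, beside 1.56 with all PC.

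Of 14 interferon-induced genes, 14 were above the origin in preMem and 8 in PC, and 7 were shared, among them Isg15, Pml, Bst2 and Zbp1. Isg15, a ubiquitin-like modifier, was at 198, 101 and 61 CPM in PC and at 87.6, 32.2 and 33.4 CPM in preMem. The groups overlapped, but within each mouse PC was higher (1.28, adjusted p = 0.0002), and both exits were highest in mouse 1. Bst2, which tethers budding virions, was at 744, 589 and 425 CPM in PC and at 97.6, 47.6 and 60.2 CPM in preMem (3.12). Ifit2, Ifit3, Stat2, Oasl2 and Rtp4 rose in preMem alone. Ifit3 had no UMI in PC and 49 in preMem, at 57.8, 19.3 and 6.69 CPM. The rise of this list in PC was less uniform in the first barcode series, which has 20 PC. There 5 of 13 genes were above the origin and 1 below, and the PC median turned from 1.27 to -0.91. Between the exits, 1 of the 13 was then higher and 8 lower in PC (median -2.20), against 4 and 6 of 14 with all PC (median -0.59). Over all genes, that series had a PC median of -0.35 against the origin and -0.37 against preMem. Zbp1 did not pass there against the origin in PC (0.76, adjusted p = 0.18).

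The interferon response core, GAAA repeated after a gap of 2 bases, on either strand, was in the promoters of 26 of 255 shared upward genes with an entry (10.2%), against 233 of all 7266 genes (3.21%). It was in 20 of 524 genes higher in PC only (3.82%), in 12 of 183 genes higher in preMem only (6.56%) and in 5 of 9 interferon-induced genes (55.6%). Between the exits, 53 of the 233 genes were called higher in PC and 68 higher in preMem. Among all genes tested the shares were 22.7% and 24.3%, and these counts are not read as a result about the motif. This is the other of the 2 motifs described. Windows of 3 shared genes with their own values are printed with only the first match to the core in capitals. They lie at chr2:122147488-122147617 (B2m, + strand), chr4:156200827-156200956 (Isg15, - strand) and chr11:48871421-48871510 (Irgm1, - strand). Isg15 held 3 matches and Irgm1 held 2, and the later ones are left in lower case. Irgm1, an interferon-induced GTPase, was at 108, 74.9 and 54 CPM in PC and at 125, 131 and 57.5 CPM in preMem, 3.90 and 4.32 above the origin.
B2m: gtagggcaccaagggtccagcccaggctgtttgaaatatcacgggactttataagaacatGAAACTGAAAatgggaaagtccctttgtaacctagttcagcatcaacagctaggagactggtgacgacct
Isg15: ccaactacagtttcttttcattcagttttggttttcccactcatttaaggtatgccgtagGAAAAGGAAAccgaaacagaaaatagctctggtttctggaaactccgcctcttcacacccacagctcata
Irgm1: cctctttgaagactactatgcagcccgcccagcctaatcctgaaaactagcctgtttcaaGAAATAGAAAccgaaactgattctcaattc

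Most genes of GC identity fell in both exits. Of the 189 genes lower in both, 51 were lower in PC than in preMem, 6 were higher and 132 were not called, and 5 were immunoglobulin genes. Their median was -1.93 in PC and -1.47 in preMem. Of 14 GC identity genes, 13 were below the origin in PC and 12 in preMem, and 9 were shared by the fold rule. Between the exits 11 were lower and 1 higher in PC. As a share of UMIs outside immunoglobulin genes the list did not separate the exits (0.141% ± 0.0055 in PC and 0.138% ± 0.0164 in preMem, exact sign-flip p = 1.0, n = 3), and Cd24a, its member higher in PC, was at means of 1146 CPM in PC and 317 CPM in preMem.

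S1pr2, which keeps B cells in the GC, was at 55.8, 50.2 and 34.8 CPM in preMem and at 5.39, 13.5 and 0 CPM in PC, from means of 166 CPM in DZ and 164 CPM in LZ. The exits did not overlap (-2.73, adjusted p = 0.00035), and S1pr2 was -4.56 from the origin in PC and -1.83 in preMem. The signalling regulators Rgs13 (-4.13 in PC, -1.25 in preMem) and Gcsam (-4.38 and -1.78) behaved in the same order. The DNA repair genes Hmces (-2.76 and -1.89) and Neil1 (-2.78 and -1.69) fell further in PC too. Cdca7, linked to replication, was at -2.56 and -2.12, and its exits overlapped (-0.44, adjusted p = 0.264). Stmn1, a microtubule regulator, fell further in preMem (-1.73 in PC, -2.18 in preMem, adjusted p = 0.0139 between them). Stmn1 in PC was at 0.26 when only the main cluster of each state was used. Exceptions in the GC list were Cd24a, an adhesion molecule that was higher in PC than in preMem (1.86), and Lmo2, a transcriptional adaptor at 151, 130 and 166 CPM in preMem and 2.7, 4.91 and 6.97 CPM in PC, which rose in preMem (1.91) and fell in PC (-3.06).

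Genes that rose in PC alone included 28 of the 40 genes of ER import, glycosylation and vesicle transport. Among those lower in PC alone, Lck, a kinase of antigen receptors, was at 4.05, 2.46 and 1.74 CPM in PC and at 59.7, 63 and 74.9 CPM in preMem (-4.55). Gsn, an actin-severing protein (-5.15), and Asap1 (-4.17) fell with it, and the cytokine gene Tnf had 3 UMIs in PC and 110 in preMem. In preMem alone, Serpinb1a, a protease inhibitor, was at 293, 287 and 296 CPM, against 1.35, 2.46 and 29.6 CPM in PC, and was 4.83 above the origin. The repressor Zeb2 was at 53.8, 68.2 and 68.2 CPM in preMem and at 2.7, 1.23 and 3.48 CPM in PC (4.01 above the origin in preMem). Serpina3g (4.71), Plbd1 (3.80), Pglyrp1 (3.22) and Fgd2 (2.76) were other genes of this class. Every one of these genes had its preMem values above its PC values.

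Genes lower in preMem alone included many of the cell cycle. Cdca3 was at 33.9, 27 and 29.4 CPM in preMem and at 189, 155 and 153 CPM in PC, -2.32 from the origin in preMem. Cdk1, the kinase of mitotic entry (-2.05), Ccna2 (-1.89), Gmnn (-1.77) and Birc5 (-1.72) belonged to the same group. The authors' phase calls put 93.4% of preMem cells in G1 (94.1, 91.3 and 95.1%), 66.4% of PC (65.2, 70.7 and 60.6%), 55.8% of LZ and 35.5% of DZ cells. Of 23 S phase genes 16 were higher in PC than in preMem and 1 lower, and of 24 G2/M genes 15 were higher and none lower. Among cells called G1 the direction turned, with 0 higher and 12 lower of 22 S phase genes and 0 higher and 18 lower of 24 G2/M genes. Mki67, the proliferation marker, was at 218, 152 and 277 CPM in PC and at 129, 141 and 147 CPM in preMem (0.61, adjusted p = 0.0103), and at -0.57 (adjusted p = 0.0445) between G1 cells. In G1 cells Cdk1 (0.42) and Ccna2 (0.21) were not below the origin in preMem. Phase calls drawn from the expression of such genes would select cells on the genes counted here. The G1 values of cell cycle genes are therefore not independent of the calls.

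In the 38 genes past the fold threshold on both sides, PC rose and preMem fell. Derl3, part of ER-associated degradation, was at 642, 528 and 458 CPM in PC and at 9.96, 6.43 and 4.01 CPM in preMem, 5.33 above and 1.03 below the origin (preMem log2 difference -1.03, adjusted p = 0.0138). Jchain and the ER peroxiredoxin Prdx4 (3.52 and -1.18) were in the same set. In G1 cells Derl3 was at 0.23 in preMem, and its fall in preMem missed the threshold without mouse 2 and without mouse 3. In 136 genes the reverse held. Cd72 was at 6.74, 9.82 and 6.97 CPM in PC and at 313, 349 and 385 CPM in preMem (-3.47 in PC, 1.99 in preMem), and the kinase Lrrk2 moved alike (-3.30 and 1.99). The memory regulator Hhex had 3 UMIs in PC and 132 in preMem (61.7, 64.3 and 68.2 CPM), 3.65 above the origin in preMem and -1.83 from it in PC (adjusted p = 0.0402). That fall of Hhex in PC was lost when any 1 mouse was left out. Cd200, an inhibitory ligand, had no UMI in PC and 85 in preMem.

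Survival, quiescence and nutrient genes completed the comparison. Of 13 BCL2 family members, PC had 2 above and 3 below preMem. Among all genes tested 22.7% were above and 24.3% below, so the list as a whole did not stand out. The members that follow are single genes. The antiapoptotic Bcl2l1 was at 24.3, 31.9 and 17.4 CPM in PC and at 1.99, 5.14 and 4.01 CPM in preMem (2.67, adjusted p = 0.00063), and the proapoptotic Bcl2l11 was at 198, 61.4 and 38.3 CPM against 5.97, 24.4 and 10.7 CPM (2.73, adjusted p = 0.00601). Neither overlapped. Bcl2 went the other way, at means of 3.65 CPM in PC and 42.8 CPM in preMem (-3.52, adjusted p = 7e-06), and Mcl1 was at 0.15 (adjusted p = 0.326). Of 13 quiescence genes and CDK inhibitors, 9 were above the origin in preMem and 5 in PC, and 4 were shared (Cdkn1b, Btg2, Tob1 and Foxo3). Cdkn1b, the CDK inhibitor p27, was at 29.7, 55.2 and 48.8 CPM in PC and at 73.7, 60.4 and 68.2 CPM in preMem, with means under 6 CPM in DZ and LZ (5.92 and 5.66 CPM). Of 13 genes of amino acid supply and translation control, 8 were higher in PC, among them the serine synthesis enzyme Phgdh (2.57) and Asns (2.48), and 1 was lower, Ddit4 (-2.69). Myc, at 22.9, 36.8 and 41.8 CPM in PC and 17.9, 20.6 and 22.7 CPM in preMem, did not pass the test (0.69, adjusted p = 0.087).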

How the data were processed

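Barcoded 5′ transcripts of lymph node B cells were read as deposited UMI counts, 13886 genes in 6000 cells, with a deposited table of each cell's mouse, state, phase, cluster and scores (the authors' memory and PC scores). The submitters' processing notes name Cell Ranger, Seurat, mm10 and GRCm38. The sources used here give no versions, filters or doublet treatment, and no doublet caller was run. All 6000 cell totals matched the table. The GEO samples are 12 libraries in 6 groups, which the cells cannot be tied to one by one, so the replicate was the mouse. Raw counts were summed per mouse for PC, preMem, DZ and LZ and fitted together in edgeR 4.0.16 (R 4.3.3; TMM, low-count filter, state plus mouse). States from the same mouse share an animal, so mouse is a block; same-mouse sums of different states had a median correlation of deviations of 0.0998 (18 pairs), other pairs -0.0628 (36 pairs), while for PC with preMem alone it was -0.0967 (3 same-mouse pairs) and -0.0291 (6 others). TMM factors were 0.602 to 0.741 in PC and 1.10 to 1.11 in preMem. Ratios of low UMI totals carry exact 95% intervals for counting error only.

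The cells and gene lists were chosen with earlier results of these data known. Named genes were the 10 largest changes each way between the exits and in both exits, the 8 largest per single-exit or opposite class (mean of at least 50 CPM, no immunoglobulin segments or predicted genes), fixed genes such as Prdm1 and Klf2, and up to 6 members and exceptions per list. Of 394 list members, 19 had no row. Results of some single genes that the rule selects are not reported here. Alternatives were RLE scaling, DESeq2 1.42.0, no filter, no block, each mouse left out, no immunoglobulin genes, equal cells, thinned sums, other sets of states, G1 cells, the first barcode series, no cells with 2 or more UMIs of other cell types, main clusters, separate zones and other fold thresholds. The test of PC against preMem was run on simulated data. It recovered 37 of 100 genes changed 2-fold and 78 of 100 changed 4-fold. Of 8914 unchanged genes it called 8. The simulation gave all states the preMem composition and 1 dispersion per gene. In the data, PC sums correlated with each other at 0.717 to 0.755 and preMem sums at 0.934 to 0.944. The simulated counts are therefore not error rates of the comparison made here.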

Additional observations from a re-analysis of the deposited data

Results flagged for a closer look

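The exits moved in opposite directions from the origin in 38 genes that were higher in PC and lower in preMem, and in 136 genes that were lower in PC and higher in preMem, each side called on its own with a log2 fold change of at least 1 in size. The test of the difference is the comparison of PC with preMem. In the first set that difference was 6.37 (log2) for Derl3, 6.93 for Jchain, 4.70 for Prdx4, 4.51 for Impdh1, a nucleotide synthesis enzyme, 3.47 for Tmem97, 2.69 for the linker histone H1f0, 3.48 for Endou and 3.07 for Uck2. The preMem side was close to the fold threshold for Impdh1 (-1.10, adjusted p = 0.0426) and H1f0 (-1.0). In the second set the difference was -5.49 for Hhex, -8.67 for Ms4a4c, -4.48 for Ephx1, -6.34 for B3gnt5, -3.94 for Pkib, -5.46 for Cd72 and -5.28 for Lrrk2. Ms4a4c had 1 UMI in PC and 404 in preMem, and B3gnt5 had 2 and 156.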

How the results depend on the processing

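PC are few (33 to 58 cells per mouse) and preMem cells are shallow, so low genes are judged on few UMIs; the p-values rest on 3 mice. Mouse was a block in the fit. With no replicate block, PC had 2279 genes above and 2384 below preMem, 328 higher and 179 lower in both exits, 734 and 702 higher and lower in PC only, 242 and 133 in preMem only, and 180 opposite. Leaving out 1 mouse gave 1768 to 1864 above and 1747 to 1803 below preMem in PC, 242 to 280 and 131 to 167 shared, 684 to 730 and 577 to 690 for PC only, 221 to 250 and 101 to 124 for preMem only, and 117 to 133 opposite. The following counts moved by more than 1.5 times. Equal cells (4814 genes tested) gave 1143 above and 1055 below preMem in PC, 152 and 88 shared, 470 and 379 for PC only, 161 higher in preMem only and 78 opposite. Thinned sums (6374 genes) gave 1509 lower in PC than in preMem, 202 and 109 shared, 475 lower in PC only and 96 opposite. G1 cells (8391 genes) gave 91 lower in both, 163 and 18 for preMem only and 87 opposite. The first barcode series gave 790 above and 1225 below preMem in PC, 128 and 95 shared, 190 and 295 for PC only and 48 opposite. Main clusters gave 104 lower in both and 162 and 22 for preMem only. Calls against DZ and LZ separately gave 100 lower in both, 177 and 59 for preMem only and 96 opposite. Without a fold threshold there were 602 and 774 shared, 440 and 378 for preMem only and 866 opposite; at a log2 fold change of 2 there were 153 and 32 shared, 381 and 314 for PC only, 127 and 22 for preMem only and 23 opposite. The ribosomal share outside immunoglobulin genes was 22.7% in PC and 28.9% in preMem.

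Of 4900 values of 183 genes under the alternatives, 4711 kept their direction and side of the threshold, 137 lost the call, 24 gained it and 28 turned. Those that turned between the exits were, in the first series, Atf6 (-0.12), Tcf4 (-0.23), Syvn1 (-0.49), Blnk (-0.52) and Cxcr3 (-0.60), and in G1 cells Mki67 (-0.57), Ctss (0.49) and Top2a (-2.95). In PC against the origin they were Klf2 (-0.80) and Ccr7 (-4.35) in G1 cells, Esco2 (0.43), Stmn1 (0.26), Mki67 (0.96) and Top2a (1.35) in main clusters, and Endou (-0.19) and Anxa2 (0.069) in the first series. In preMem against the origin they were Esco2 (0.28), Cdk1 (0.42), Ccna2 (0.21), Derl3 (0.23) and Top2a (0.31) in G1 cells, and Esco2 (0.27), Cdk1 (0.54), Ccna2 (0.42), Birc5 (0.30), Derl3 (0.18), Mki67 (0.20) and Top2a (0.41) in main clusters. In the first series Atf6 and Tcf4 lay above the median over all genes between the exits (-0.37). Endou and Anxa2 lay above the PC median over all genes against the origin there (-0.35). The cause of these turns was not tested. Leaving out cells led by Ighd was an alternative chosen after seeing the data, and it moved none of the counts given above by more than 1.5 times.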

Other observations

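Thinned to 2000 UMIs per cell, which left out 9 preMem cells, 17.5% of PC and 26.3% of preMem cells had an S100a10 UMI (67.1 and 37.7% unthinned), and 0.725% of PC and 29.5% of preMem cells had a Ccr6 UMI.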
